A study of Homo sapiens with 4 samples.

Results

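Skipped exons of the spectrin-based membrane skeleton were examined in MDA-LM2 cells after depletion of SNRPB2, a component of the U2 particle of the spliceosome. MDA-LM2 is an established line selected from MDA-MB-231 breast cancer cells for growth in the lung. The members were the skipped-exon events whose middle exon shares a boundary with a GENCODE release 29 exon of SPTAN1, SPTBN1, ANK2, ANK3, ADD1, ADD3, EPB41, EPB41L1, EPB41L2 or EPB41L3. This gave 122 of the 44910 events listed in either file, for 92 of 38121 skipped exons and for 9 of the 10 genes. No event was assigned to SPTBN1, which is not analysed here. The genes were chosen with results of these data known, so their values are described below without a test.

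Both groups were MDA-LM2 cells transfected with small interfering RNA (siRNA) and a Lipofectamine reagent, and RNA was taken 48 h later. The siSNRPB2 group (2 libraries) received siRNA against SNRPB2, for which the series names 2 independent siRNAs and a knockdown above 95% by quantitative PCR, and the siCtrl group (2 libraries) a control siRNA. The labels do not say which siRNA each library received. The files hold 1 value per event and group, so nothing below has a replicate check or a spread between libraries. The 122 events held 215890 reads in siSNRPB2 and 216087 in siCtrl. No event was assigned to SNRPB2, so the depletion could not be checked in the files. Of markers of mesenchymal breast cancer lines, 5 of 6 had an event, led by CD44 (2290 and 2620 RPM, scaled to the reads of a file, in siSNRPB2 and siCtrl), ITGB1 (1710 and 1830) and AXL (232 and 278). VIM had none with 20 reads. Among epithelial or luminal markers, KRT8 (666 and 716 RPM), ESRP2 (21.3 and 24.9) and ESRP1 (1.94 and 0.521) had an event, and ESR1, CDH1, EPCAM and KRT18 had none with 20 reads. Among red cell genes ANK1 had one (14.8 and 20.3 RPM), and HBA1, HBB, SLC4A1 and EPB42 had none with 20 reads.

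Spectrin tetramers, built from alpha and beta chains, form an elastic lattice under the plasma membrane. Ankyrins tie the beta chain to membrane proteins, and protein 4.1 and adducin fasten spectrin to short actin filaments. The genes are known for tissue-specific cassette exons, of which the best described is a short exon of EPB41 that encodes part of the spectrin-actin binding domain and is switched on during red cell maturation.

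The inclusion level ψ, a fraction given by the authors with an interval, compares the 2 isoforms of an event, with and without the exon. It is the part with the exon among these isoforms, which share the neighbouring exons of the event. It is not the part of all transcripts of a gene, so an exon with several events can have unlike ψ values. A read that fits only the isoform with the exon is called inclusion-only, and one that fits only the isoform without it exclusion-only; both kinds are informative. Reads on the neighbouring exons fit both isoforms. An exon counted as tested when each file had 20 or more informative reads for it, through its event richest in such reads. An exon was called when the Bayes factor in the authors' deposited table, which weighs a difference between the files against none, reached 10 and ψ differed by 0.1 or more. By this rule 45 of the 92 member exons were tested, and 47 were not. Of the 45, 2 were called lower in siSNRPB2, against 7.61% of all 18682 tested exons, and 4 were called higher, against 7.13% of all tested exons. The median ψ difference was 0 over the members and 0 over all tested exons, with 14 members below 0, 19 above and 12 at 0.

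The exons called higher were a 60 nt exon of SPTAN1, 126 and 183 nt exons of ANK2 and a 177 nt exon of EPB41. Those called lower were a 163 nt exon of ADD1 and a 99 nt exon of EPB41L2. Their sequences are shown because these are the called exons, from GENCODE release 29 transcripts (hg38), 5′ to 3′ on the transcribed strand. The skipped exon is in capitals and the ends of the neighbouring exons of the event, 30 bases each, in lower case.
SPTAN1 60 nt, chr9:128592983-128593042, plus strand: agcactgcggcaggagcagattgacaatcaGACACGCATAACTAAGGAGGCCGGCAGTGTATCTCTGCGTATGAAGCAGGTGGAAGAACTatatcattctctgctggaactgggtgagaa
ANK2 126 nt, chr4:113343017-113343142, plus strand: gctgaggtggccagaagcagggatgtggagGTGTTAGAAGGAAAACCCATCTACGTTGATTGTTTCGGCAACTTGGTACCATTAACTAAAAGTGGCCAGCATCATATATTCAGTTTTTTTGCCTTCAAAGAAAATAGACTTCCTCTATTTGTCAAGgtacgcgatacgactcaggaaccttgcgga
ANK2 183 nt, chr4:113374764-113374946, plus strand: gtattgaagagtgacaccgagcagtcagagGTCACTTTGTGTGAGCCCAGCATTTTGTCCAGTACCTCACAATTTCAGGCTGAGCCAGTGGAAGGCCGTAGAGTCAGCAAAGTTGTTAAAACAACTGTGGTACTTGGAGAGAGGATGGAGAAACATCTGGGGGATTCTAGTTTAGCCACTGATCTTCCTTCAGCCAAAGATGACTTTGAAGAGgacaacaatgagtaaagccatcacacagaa
EPB41 177 nt, chr1:29064982-29065158, plus strand: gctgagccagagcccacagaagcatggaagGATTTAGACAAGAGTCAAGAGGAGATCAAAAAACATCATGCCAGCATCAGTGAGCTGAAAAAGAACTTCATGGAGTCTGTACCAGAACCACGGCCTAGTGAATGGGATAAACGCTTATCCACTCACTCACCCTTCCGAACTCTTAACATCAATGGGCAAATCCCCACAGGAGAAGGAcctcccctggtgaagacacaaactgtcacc
ADD1 163 nt, chr4:2881898-2882060, plus strand: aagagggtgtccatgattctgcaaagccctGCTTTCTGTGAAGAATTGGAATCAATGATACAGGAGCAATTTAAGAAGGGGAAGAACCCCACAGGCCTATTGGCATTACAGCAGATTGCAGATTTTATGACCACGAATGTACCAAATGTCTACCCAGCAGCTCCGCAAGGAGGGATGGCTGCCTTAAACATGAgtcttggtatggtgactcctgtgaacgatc
EPB41L2 99 nt, chr6:130865536-130865634, minus strand: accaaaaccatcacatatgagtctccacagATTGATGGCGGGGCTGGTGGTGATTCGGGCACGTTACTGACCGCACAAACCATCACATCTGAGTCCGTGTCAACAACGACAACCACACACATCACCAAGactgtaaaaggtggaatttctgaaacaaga

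In the annotation these 6 exons are coding in every protein-coding transcript that holds them. The length is a multiple of 3 in 5 of the 6, so that keeping or skipping the exon leaves the reading frame; the ADD1 exon of 163 nt is the exception. Over all tested members 31 of 45 lengths (68.9%) were multiples of 3, against 41.8% of all tested exons. The families differed in this: 9 of 9 ankyrin exons, 18 of 20 protein 4.1 exons, 4 of 6 SPTAN1 exons and 0 of 10 adducin exons were multiples of 3. Inclusion was near complete (ψ of 0.95 or more in siSNRPB2 and siCtrl alike) for 11 of the 45 and near absent (0.05 or less) for 12, and 22 lay between. The plot of ψ for the 45 exons shows these groups.

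**Figure D1:**
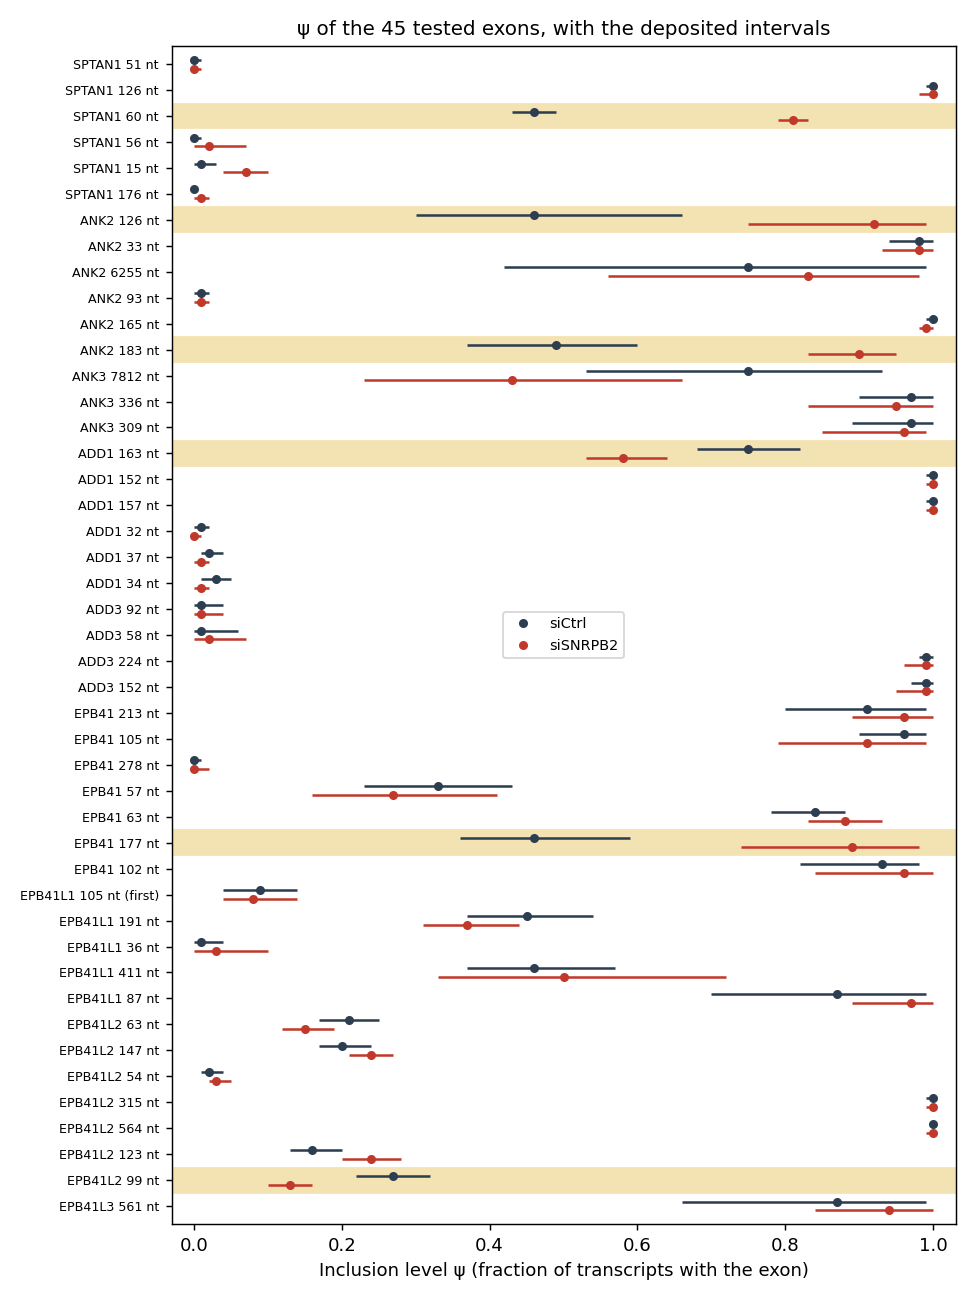
Inclusion level ψ (horizontal axis, fraction) of the 45 tested exons in gene order, siCtrl in dark blue and siSNRPB2 in red, with the deposited intervals as lines; shaded rows are the 6 called exons. In these 6 the intervals of the files do not overlap, while 23 exons lie at or above 0.95, or at or below 0.05, in both files.

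SPTAN1 encodes alpha-II spectrin, the alpha chain of most cells outside the red cell lineage. Its 60 nt exon adds a stretch of residues beside the SH3 domain of the protein. In siCtrl 623 reads were inclusion-only and 422 exclusion-only, and ψ was 0.46 (interval 0.43 to 0.49). In siSNRPB2 the numbers were 1263 and 197, and ψ was 0.81 (0.79 to 0.83). Use of the exon was near-balanced in siCtrl and mostly inclusive in siSNRPB2, a ψ difference of 0.35. Inclusion-only reads were more and exclusion-only reads fewer in siSNRPB2, although reads that fit both isoforms were fewer (1492 against 2141). The authors' deposited table gives this event a Bayes factor of 1e+12, the largest value in it. The share of inclusion-only among informative reads was 0.865 in siSNRPB2 and 0.596 in siCtrl, a smaller difference of 0.269.

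A microexon of SPTAN1 of 15 nt was higher in siSNRPB2 at a low level. It is shown because it is the shortest tested member and, like the 60 nt exon, adds whole codons.
SPTAN1 15 nt, chr9:128609651-128609665, plus strand: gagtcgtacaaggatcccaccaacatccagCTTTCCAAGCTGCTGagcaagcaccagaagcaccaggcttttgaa

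Its ψ was 0.07 (0.04 to 0.10) in siSNRPB2 and 0.01 (0.00 to 0.03) in siCtrl, with 17 inclusion-only reads against 4 and 178 exclusion-only reads against 309. Its Bayes factor was 254.9 (authors' deposited table), but the difference of 0.06 missed the minimum of 0.1. The other 4 tested SPTAN1 exons, of 51, 56, 126 and 176 nt, differed by at most 0.02. The 126 nt exon was fully included in its event by these values (ψ 1 in both files, on 1168 and 1578 inclusion-only reads, none exclusion-only). The exons of 51, 56 and 176 nt were almost fully skipped, with ψ of 0.02 or less in both files.

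Ankyrins link spectrin to ion channels, exchangers and adhesion molecules through repeats in their membrane-binding part. In ANK2, which encodes ankyrin-B, 2 of 6 tested exons were called higher. The 183 nt exon, which lies close to the 3′ end of the gene, had 96 reads for inclusion and 7 for exclusion after SNRPB2 depletion, against 47 and 19 in siCtrl. Its ψ was 0.90 (0.83 to 0.95) in siSNRPB2 and 0.49 (0.37 to 0.60) in siCtrl, a difference of 0.41. With a 92 nt exon as the downstream neighbour the same exon had ψ of 0.98 and 0.51, without an exclusion-only read in either file. The events share the upstream neighbour and the same 96 and 47 inclusion-only reads, so they are not independent of each other.

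The 126 nt exon of ANK2 had a ψ of 0.92 (0.75 to 0.99) in siSNRPB2 and 0.46 (0.30 to 0.66) in siCtrl, a difference of 0.46 that is the largest among the called members. Its inclusion-only reads were nearly the same in number (30 and 29), and exclusion-only reads were absent. What differed was the reads on the neighbouring exons, 39 in siSNRPB2 and 155 in siCtrl. An upstream exon of 99 nt, which encodes an ankyrin repeat, had a wider gap (ψ 0.97 and 0.09) but was not tested, because siCtrl had only 4 informative reads. In this event, too, there was no exclusion-only read, with 69 inclusion-only reads in siSNRPB2 and 33 flanking reads against 134 in siCtrl.

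Reads that fit either isoform were fewer in siSNRPB2 on the deepest ANK2 event, and a larger share of the reads on ANK2 events fitted neither isoform. On this deepest event, that of the 165 nt exon, ANK2 had 30.1 RPM in siSNRPB2 and 54.2 in siCtrl. With reads summed over all ANK2 events the log2 ratio (siSNRPB2 over siCtrl) was -0.64. The drop was not seen along the whole gene, as the 6255 nt exon had 360 and 364 inclusion-only reads. Reads that fit neither isoform, such as intronic reads, were 71.5% of the reads on ANK2 events in siSNRPB2 and 57.2% in siCtrl. Their part in the ψ differences of ANK2 was not tested.

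The remaining tested ANK2 exons differed by at most 0.08. The giant exon of 6255 nt, which is typical of the long neuronal ankyrin-B, had 360 and 364 inclusion-only reads and no exclusion-only read. Reads that fit both isoforms numbered 0 in siSNRPB2 and 2 in siCtrl. Its ψ was 0.83 (0.56 to 0.98) in siSNRPB2 and 0.75 (0.42 to 0.99) in siCtrl. The 165 nt exon of ANK2 had 219 and 403 inclusion-only reads, so reads per base were far fewer on the giant exon. These values do not settle how many ANK2 transcripts hold the giant exon. The counterpart of this exon in ANK3, the ankyrin-G gene, has 7812 nt. Inclusion-only reads numbered 197 in siSNRPB2 and 184 in siCtrl, exclusion-only reads 4 and 0, and reads that fit both isoforms 0 and 0. The ψ of 0.43 (0.23 to 0.66) and 0.75 (0.53 to 0.93) had overlapping intervals. The difference of -0.32 was not called, its Bayes factor being 2.27 in the authors' deposited table. The other 2 tested ANK3 exons, 309 and 336 nt long, share their 3′ end and most reads, and had ψ of 0.95 to 0.97. No ANK3 exon was called.

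Adducins cap the fast-growing ends of actin filaments and recruit spectrin to them. Of 6 tested exons of ADD1, the alpha-adducin gene, the 163 nt exon was called lower, with ψ of 0.58 (0.53 to 0.64) in siSNRPB2 and 0.75 (0.68 to 0.82) in siCtrl. There were 496 inclusion-only reads in siSNRPB2 and 768 in siCtrl, and 1669 and 1996 reads on the neighbouring exons. None of the informative reads was exclusion-only: 0 of 496 allows a share of up to 0.605%, and 0 of 768 one of up to 0.391%, by counting error only. No read thus showed the skipping junction, in an exon whose ψ was well below 1. Among the 6 calls it had the smallest Bayes factor of the authors' deposited table, 23.25.

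Other ADD1 exons stood at the ends of the scale. The exons of 152 and 157 nt had ψ of 1 in both files, on 1204 and 1357, and 867 and 1117, inclusion-only reads. A group of short alternative exons near the 3′ end, of 32, 34 and 37 nt, was nearly silent: the event of each had the same 223 reads (siSNRPB2) and 132 reads (siCtrl) over the skipping junction, and ψ was between 0.00 and 0.03. The 34 and 37 nt exons differ only at their 5′ boundary. The 34 nt exon had 1 inclusion-only read in siSNRPB2 and 8 in siCtrl, and the 37 nt exon 1 and 5. In ADD3, the gamma-adducin gene, none of 4 tested exons was called and none differed by more than 0.01. The deepest, of 152 nt, had ψ of 0.99 (0.95 to 1.00) in siSNRPB2 and 0.99 (0.97 to 1.00) in siCtrl, on 275 and 518 inclusion-only reads. A 96 nt exon of ADD3 was not tested, with 12 informative reads in siSNRPB2 and 16 in siCtrl, and had ψ of 0.20 (0.11 to 0.32) and 0.12 (0.06 to 0.20).

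**Figure D2:**
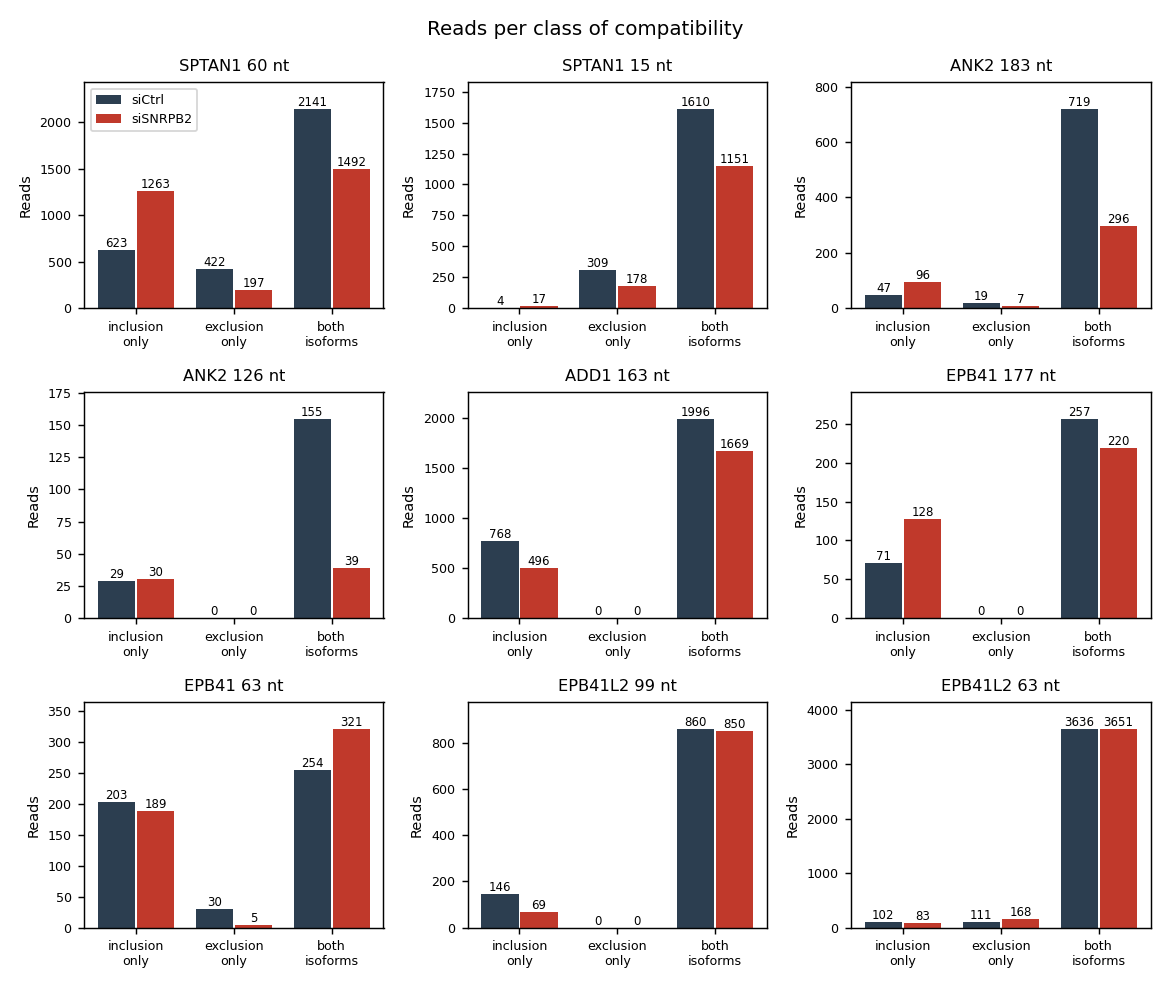
Reads per class of compatibility (vertical axis, number of reads, each panel with its own scale) in siCtrl (dark blue) and siSNRPB2 (red) for 9 member exons; the EPB41 63 nt panel is its event between the 209 and 177 nt exons. The SPTAN1 60 nt, ANK2 183 nt and EPB41 63 nt exons have fewer exclusion-only reads in siSNRPB2, and the ANK2 126 nt, ADD1 163 nt, EPB41 177 nt and EPB41L2 99 nt exons have none in either file.

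EPB41 encodes protein 4.1R, whose FERM domain binds membrane proteins and whose spectrin-actin binding domain lies further downstream. A row of cassette exons of 57, 42 and 63 nt leads into the 177 nt exon, and the 63 and 177 nt exons together encode the spectrin-actin binding domain. Between the 209 and 129 nt exons, the 177 nt exon was called higher, with ψ of 0.89 (0.74 to 0.98) in siSNRPB2 and 0.46 (0.36 to 0.59) in siCtrl. Its inclusion-only reads were 128 and 71, and exclusion-only reads were absent from both files. Reads on its neighbours were 220 and 257, so the exon's own reads were more and those of the neighbours fewer in siSNRPB2. Neither isoform of this event holds the 57, 42 or 63 nt exon, and 1004 and 859 reads fitted neither isoform. The ψ of this event is therefore not the share of all EPB41 transcripts with the 177 nt exon. In the annotation 28 transcripts hold the 177 nt exon, and 1 joins the neighbours of this event directly.

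The 63 nt exon had 3 tested events, which differ in the upstream neighbour, and only 1 of them passed the thresholds. Between the 209 and 177 nt exons ψ was 0.95 (0.90 to 0.98) in siSNRPB2 and 0.82 (0.76 to 0.87) in siCtrl, with 5 exclusion-only reads against 30. Between the 57 and 177 nt exons, the event with the most informative reads, ψ was 0.88 (0.83 to 0.93) and 0.84 (0.78 to 0.88), with 16 exclusion-only reads against 30. Between the 42 and 177 nt exons ψ was 0.99 in both files, without an exclusion-only read. The exon was therefore mostly included in each of these 3 events in both files, and its difference ranged from 0.00 to 0.13 with the neighbour chosen.

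The 42 nt exon had a lower ψ in siSNRPB2 but was just short of the read minimum, with 19 and 16 informative reads in siSNRPB2 in its 2 events. Between the 57 and 63 nt exons ψ was 0.11 (0.03 to 0.24) in siSNRPB2 and 0.41 (0.30 to 0.54) in siCtrl, on 2 inclusion-only and 17 exclusion-only reads against 26 and 24. Between the 57 and 177 nt exons ψ was 0.03 (0.00 to 0.09) and 0.30 (0.19 to 0.42), on 0 and 16 reads against 18 and 30. Junction reads of both kinds were present, and in siSNRPB2 inclusion-only reads were nearly absent. The 57 nt exon had ψ of 0.27 (0.16 to 0.41) and 0.33 (0.23 to 0.43) and was not called.
EPB41 42 nt, chr1:29058811-29058852, plus strand: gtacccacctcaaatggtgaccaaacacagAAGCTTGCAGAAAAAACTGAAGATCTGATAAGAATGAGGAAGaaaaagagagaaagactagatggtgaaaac

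Upstream in EPB41, a 213 nt exon had the most informative reads of the gene. Next to the 105 nt exon its ψ was 0.96 (0.89 to 1.00) in siSNRPB2 and 0.91 (0.80 to 0.99) in siCtrl, on 267 and 221 inclusion-only reads. Next to the 43 nt exon its ψ was 0.64 (0.54 to 0.75) and 0.44 (0.36 to 0.55), on 184 and 118 inclusion-only reads, with a difference of 0.20. Neither event had an exclusion-only read, and neither was called; the Bayes factor of the latter was 8.29 in the authors' deposited table.

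**Figure D3:**
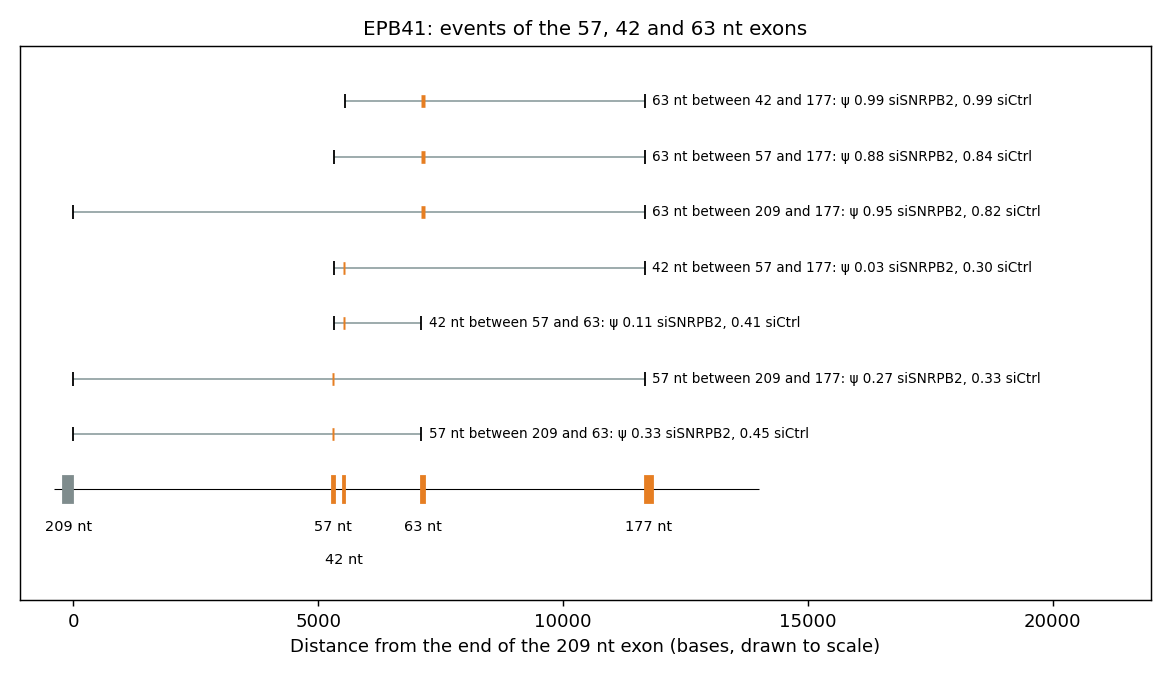
Exons of EPB41 drawn to scale by distance from the end of the 209 nt exon (horizontal axis, bases), with the events of the 57, 42 and 63 nt cassette exons as lines from neighbour to neighbour and ψ printed beside each. The 63 nt exon has ψ between 0.82 and 0.99 in all of its events, while the 42 nt exon is at 0.41 and 0.30 in siCtrl and at 0.11 and 0.03 in siSNRPB2.

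EPB41L2 encodes protein 4.1G, a widely expressed relative of 4.1R, and holds a 63 nt exon at the matching place. Without gaps, 50 of 63 bases (79.4%) were the same in the EPB41 and EPB41L2 exons. Both are printed in lower case, with the bases that differ in capitals, so that the sequences of like exons of 2 genes can be compared.
EPB41 63 nt, chr1:29060422-29060484, plus strand: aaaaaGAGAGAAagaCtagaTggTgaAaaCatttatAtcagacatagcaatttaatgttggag
EPB41L2 63 nt, chr6:130880144-130880206, minus strand: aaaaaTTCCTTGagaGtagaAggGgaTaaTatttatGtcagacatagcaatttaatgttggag

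The differing bases lie mostly in the 5′ part, and the 3′ end of the exons is the same. The deepest event of the EPB41L2 exon lies between the 173 and 564 nt exons and leaves out the adjoining 147 nt exon. The deepest event of the EPB41 exon ends at the adjoining 177 nt exon, so the deepest events do not compare like isoforms. In that EPB41L2 event ψ was 0.15 (0.12 to 0.19) in siSNRPB2 and 0.21 (0.17 to 0.25) in siCtrl. It had 83 and 102 inclusion-only and 168 and 111 exclusion-only reads. Between the 36 and 147 nt exons ψ of the EPB41L2 exon was 0.98 and 0.99, and between the 173 and 99 nt exons 0.84 and 0.93. None of its 3 events was called. Their ψ differences ran from -0.09 to -0.01, at Bayes factors of 0.76 or less in the authors' deposited table. The events that start at the 173 nt exon hold the same 83 and 102 inclusion-only reads, so they are not independent of each other.

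The 99 nt exon of EPB41L2, in the region that encodes the C-terminal domain, was called lower. Its ψ was 0.13 (0.10 to 0.16) in siSNRPB2 and 0.27 (0.22 to 0.32) in siCtrl, with 69 inclusion-only reads against 146. Reads on the neighbours were nearly equal (850 and 860), and 0 reads were exclusion-only, which allows up to 4.35% of the 69 and 2.05% of the 146 informative reads. With another upstream neighbour ψ was 0.10 and 0.23, on 49 and 114 inclusion-only reads. The adjoining exon of 123 nt was higher by 0.08 (ψ 0.24 and 0.16; 135 and 95 inclusion-only reads), and was not called, at a Bayes factor of 1.69 (authors' deposited table). Its other 2 tested events differed by 0.07 (ψ 0.17 and 0.10) and 0.19 (0.69 and 0.50). Their Bayes factors in the authors' deposited table were 12.01 and 1.88, so neither passed both thresholds. The exons of 315 and 564 nt share their 5′ boundary, and the shorter lies within the longer, so they are alternative forms of the same exon. On 1829 and 1776, and 3597 and 3566, inclusion-only reads, each form had ψ of 1 in both files in its own event. Neither event compares the forms with each other, and reads within the shared part fit both.

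In EPB41L1, which encodes 4.1N, a relative best known from neurons, none of 5 tested exons was called. A FERM domain exon of 105 nt missed the read minimum by 1 read, with 19 informative reads in siSNRPB2 and 108 in siCtrl, none exclusion-only. Its ψ was 0.20 (0.11 to 0.31) in siSNRPB2 and 0.86 (0.70 to 1.00) in siCtrl, and flanking reads were 156 and 182. It aligns without gaps with the FERM domain exon of EPB41 of the same length, at 64 of 105 bases (61%). Between the 213 and 43 nt exons, that EPB41 exon had ψ of 0.91 (0.79 to 0.99) in siSNRPB2 and 0.96 (0.90 to 0.99) in siCtrl, on 83 and 117 inclusion-only reads, and was not called. The 2 exons are printed with the differing bases in capitals.
EPB41 105 nt, chr1:28997215-28997319, plus strand: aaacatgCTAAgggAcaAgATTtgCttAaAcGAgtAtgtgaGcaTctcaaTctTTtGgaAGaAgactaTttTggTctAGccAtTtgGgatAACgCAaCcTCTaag
EPB41L1 105 nt, chr20:36177952-36178056, plus strand: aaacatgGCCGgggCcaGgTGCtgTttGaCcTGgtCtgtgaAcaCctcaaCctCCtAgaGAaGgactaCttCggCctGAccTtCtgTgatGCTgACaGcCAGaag

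Among other EPB41L1 exons, the 411 nt exon had ψ of 0.50 (0.33 to 0.72) in siSNRPB2 and 0.46 (0.37 to 0.57) in siCtrl. The 191 nt exon, which holds a translation start in some transcripts, had 4 events with ψ between 0.37 and 0.71 in siSNRPB2 and 0.39 and 0.62 in siCtrl. Their differences went from -0.08 to 0.19, and none was called. In EPB41L3, which encodes 4.1B, a 561 nt exon was the only one tested, with ψ of 0.94 (0.84 to 1.00) and 0.87 (0.66 to 0.99) on 60 and 27 inclusion-only reads.

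At the thresholds, the tested exon with the fewest reads was the SPTAN1 51 nt exon, with 20 informative reads in siSNRPB2, and the ADD1 93 nt, EPB41 42 nt and EPB41L1 105 nt exons lay just outside with 19. The call with the smallest difference was EPB41L2 99 nt at -0.14. By the event used for each exon, the SPTAN1 15 nt exon came nearest among exons not called with a Bayes factor of 10 or more, at 0.06 (authors' deposited table). Other tested events of exons not called had larger differences at such Bayes factors, namely EPB41 63 nt (0.13) and EPB41L2 123 nt (0.07), described above. The EPB41L1 87 nt exon reached a difference of 0.1 (ψ 0.97 and 0.87), but its Bayes factor was 0.32 (authors' deposited table). Outside the read minimum, events of 5 exons passed the other thresholds, namely the ANK2 99 nt, EPB41 42 nt and EPB41L1 105 nt exons described above, an event of the EPB41 105 nt exon (ψ 0.01 and 0.12) and an event of another EPB41L1 exon of 105 nt (ψ 0.53 and 0.03). The last 2 exons each had another event that was tested and not called. Of the 45 tested exons 17 were chosen for full description by the naming rule, and the other 28 differed by -0.06 to 0.1 in the event used for each. The Bayes factors of those events in the authors' deposited table were 1.69 or less.

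**Figure D4:**
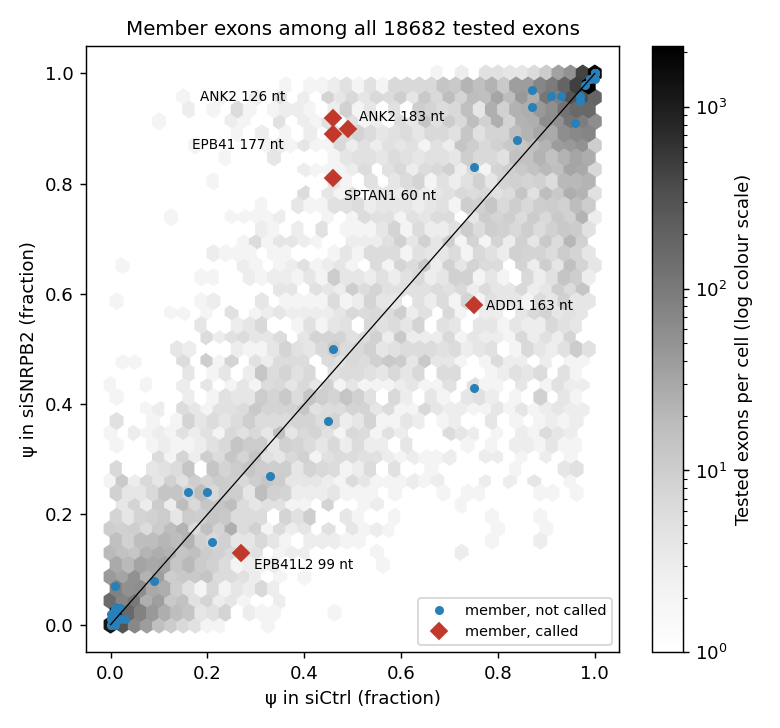
ψ in siSNRPB2 (vertical axis) against ψ in siCtrl (horizontal axis) for all 18682 tested exons (grey cells, log colour scale) and for the 45 members (blue, not called; red diamonds, called). The 4 exons called higher lie together, at ψ of 0.46 to 0.49 in siCtrl and 0.81 to 0.92 in siSNRPB2.

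The 4 exons called higher shared a control ψ near the middle of the scale. The intervals are also wider for called members (median widths 0.115 in siSNRPB2 and 0.185 in siCtrl) than for members not called (0.07 and 0.04). An exclusion-only read in at least 1 file was present for 22 of 45 members (48.9%, exact 95% interval 33.7 to 64.2) and for 48.9% of all tested exons. Of the 6 called members, 2 had such a read (SPTAN1 60 nt and ANK2 183 nt) and 4 had none.

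The level of a gene was approximated by the reads that fit either isoform of its deepest event, in RPM over 1 event per gene. A smaller share of cells with the RNA and less RNA per cell cannot be told apart in such bulk values. ANK2 was lowest relative to control, with a log2 ratio (siSNRPB2 over siCtrl, pseudocount 1) of -0.83, where 5.1% of the 10738 measured genes were lower. ADD3 was at -0.44 (91.9 and 125 RPM) and SPTAN1 at -0.22 (192 and 223). ADD1, the most deeply read member, was at 0.02 (481 and 473). The protein 4.1 genes were above 0: EPB41L2 at 0.22 (235 and 202), EPB41 at 0.32 (53.3 and 42.5), EPB41L1 at 0.43 (23.5 and 17.2) and EPB41L3 at 0.95 on only 62 and 27 reads. ANK3 was at 0.28 (11.8 and 9.58). The deepest events of ANK3 and EPB41L3 were those of their 7812 and 561 nt exons, where almost all of these reads were inclusion-only. The levels of these genes therefore rest on reads of those exons. The median was 0.22 over the 9 members and 0.01 over all genes, whose SD was 0.54. ANK2 and EPB41L3 lay farther from 0 than this SD. Over the 7145 genes with at least 200 reads on average the SD was 0.349, and ADD3 and EPB41L1 lay beyond that as well. With reads summed over all events, EPB41L1 changed sign to -0.07 and ADD1 to -0.02, and the median of the members to -0.017.

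Other genes of the membrane skeleton and of the FERM domain family, 43 listed, gave 47 tested exons in 21 genes. Of these, 1 was called lower and 2 were called higher, or 2.13% and 4.26%, with a median difference of 0. The lower exon was in KRIT1, a FERM domain protein of endothelial junctions (108 nt; ψ 0.18 in siSNRPB2 and 0.38 in siCtrl; 67 and 199 inclusion-only reads, none exclusion-only). The higher exons were in FRMD4A (342 nt; ψ 0.78 and 0.16) and PTPN13, a FERM domain tyrosine phosphatase (57 nt; ψ 0.93 and 0.14; 16 exclusion-only reads in siCtrl and 0 in siSNRPB2).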

How the data were processed

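Total RNA libraries, 2 for each group and 4 together, were made with a stranded kit, per the labels' protocols. The submitters' processing notes name STAR 2.7 and hg38. The deposited values are MISO estimates of inclusion, per the file headers: the authors gave ψ as a fraction from 0 to 1 with an interval, reads per class, the Bayes factor, which is a ratio that reaches 1e+12 at most, and the ψ difference as a score (siCtrl subtracted from siSNRPB2). The sources used here do not give MISO's version, its annotation of events, the interval's level or how libraries were merged. Listed events had 20 or more reads.

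Members were found by exon boundaries of GENCODE release 29 (hg38) on the same strand. Members, lists and thresholds were chosen with earlier results of these data known. Calls were counted across all 18682 tested exons, and no test between groups was run, since each group has 1 value per event. The naming rule took called exons, exons past a Bayes factor of 10 that differed by 0.05 or more, and per gene the exon with the most informative reads and that with control ψ nearest 0.5. The sequences of the SPTAN1 15 nt exon, of the EPB41 exons of 42, 63 and 105 nt, of the EPB41L2 63 nt exon and of the EPB41L1 105 nt exon, and the values of untested exons, were chosen after values were seen. Exon sequences came from annotated transcripts; splice sites in introns were not used here. Intervals and limits cover counting error only, and reads without molecular identifiers are not independent molecules. The working of the call rule was checked on events with assigned ψ differences and Bayes factors, which gives no error rate. Python 3.11.15 was used with pandas 2.3.3, numpy 2.4.6, matplotlib 3.10.9 and scipy 1.17.1.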

Additional observations from a re-analysis of the deposited data

Results flagged for a closer look

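Reads that fit neither isoform were not used in the comparisons. They made up 55.6% of the reads on member events in siSNRPB2 and 50.2% in siCtrl, and 61.2% and 59.1% over all events. By gene, and over events listed in both files, the share was higher in siSNRPB2 for ANK2 (71.5% and 57.2%), ADD3 (68.2% and 56.8%) and EPB41L1 (91.6% and 85.9%). It differed by at most 2 percentage points for SPTAN1, ANK3, ADD1, EPB41 and EPB41L2, and lower for EPB41L3 (70.7% and 88.7%).

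Among the member events, 4 were listed only for siSNRPB2, 3 in ANK3 and 1 in EPB41L3, and none only for siCtrl. The ANK3 exon of 54 nt had ψ of 0.07 (0.01 to 0.20) on 13 exclusion-only reads in 1 event and 0.44 (0.06 to 0.87) without informative reads in the other, and the ANK3 exon of 63 nt had ψ of 0.90 (0.71 to 0.99) on 13 inclusion-only reads. The EPB41L3 exon of 117 nt had 1 informative read.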

How the results depend on the processing

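No paired analysis was possible because the files hold 1 value per group and event, and for the same reason no library could be left out. The numbers of lower (2) and higher (4) calls stayed within 1.5 times, at 2 lower and 3 to 5 higher, with a Bayes factor of at least 5 or 20, a ψ difference of at least 0.05, at least 50 informative reads, both boundaries shared, the median over the events of an exon, and intervals that do not overlap. With a ψ difference of at least 0.2 there were 0 lower calls, and with at least 10 informative reads 4, which adds EPB41 42 nt and EPB41L1 105 nt. With only exons that have an exclusion-only read there were 0 lower and 2 higher calls. The median ψ difference was 0 under every alternative tried, and the share of exons with an exclusion-only read ranged from 39.4% to 52.6%. The median log2 ratio of reads per gene was 0.22 and turned to -0.017 with reads summed over all events, where ADD1 and EPB41L1 changed sign; 0.5 as pseudocount and no minimum of reads left it at 0.22. With the share of inclusion-only reads in place of ψ, 9 of the 17 exons described in full moved by more than the counting error of that share. All 6 called exons were among these 9. The difference became 0 for ANK2 126 nt, ADD1 163 nt, EPB41 177 nt and EPB41L2 99 nt. It became 0.269 for SPTAN1 60 nt and 0.22 for ANK2 183 nt. The moves arose in part because this share is 1 wherever exclusion-only reads are absent. A length-normalised share was not run, since it needs a read length that is not given in the sources used here. Depth limits the 47 untested member exons, 10 of which had no informative read in either file.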

Other observations

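Apart from the 63 and 105 nt exons, 2 pairs of equal length in related genes were alike in sequence. Exons of 99 nt in ANK2 (the downstream one of its 2 exons of that length) and ANK3 had 76 of 99 bases in common (76.8%). Neither was tested, with ψ of 0.02 and 0.02 in ANK2 and 0.25 and 0.10 in ANK3 in siSNRPB2 and siCtrl. Exons of 152 nt in ADD1 and ADD3 had 93 of 152 bases in common (61.2%), and both were near full inclusion in both files (ψ 1 and 1 in ADD1, 0.99 and 0.99 in ADD3).

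Among the tested members, the nearest to each of the 4 exons called higher, by ψ differences summed over the files, were the other 3 called higher. The same ψ values enter the calls, so this likeness follows in part from the call rule. The closest pair was ANK2 126 nt and EPB41 177 nt, 0.03 apart, and the farthest from its nearest was SPTAN1 60 nt, 0.08 from EPB41 177 nt. The nearest member to ADD1 163 nt was the giant ANK3 exon of 7812 nt, 0.15 apart, which was not called. The nearest to EPB41L2 99 nt was the 63 nt exon of the same gene, 0.08 apart and not called.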
